A study of Mus musculus with 11 samples.

Results

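Chil1, Ankrd22, Ceacam10, Syt10 and Dnm1 are genes outside the usual neutrophil granule set that stood high on the arrays taken 96 h after deletion of the histone demethylases Kdm4a, Kdm4b and Kdm4c was induced in leukaemic progenitors. They were picked by name for a strong rise by 96 h, and their probes were found through the RefSeq accession printed for each probe. These are 6 of the 55681 probes on the array, Dnm1 having 2, and 5 of the 25109 genes or unnamed transcripts tested. All 6 probes passed the filter on dim probes, which asked for a signal well above background on at least 3 arrays. The name of late riser describes Chil1, Ankrd22 and Ceacam10, whose 96 h arrays all lay above every 0 h and every 48 h array. That is no finding, since a strong rise by 96 h chose them. Of all genes, 16.4% had all 96 h arrays above the 0 h arrays, and 14.2% had them above the 48 h arrays. Syt10 and Dnm1 took another course: both had lower means at 48 h than at 0 h, and their 96 h arrays overlapped the 0 h arrays.

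RNA came from cultures of mouse L-GMP, leukaemic cells resembling granulocyte-macrophage progenitors, which had been transformed with MLL-AF9, a fusion of the MLL and AF9 proteins that causes acute leukaemia. The series describes 4 such lines, established from leukaemic mice on the C57BL/6 background. All groups carried the genotype Jmjd2a/b/cf/f;Rosa26::CreERT2, that is, floxed alleles of the 3 demethylase genes (Jmjd2 is an older name of Kdm4) and a tamoxifen-activated Cre recombinase expressed from the broadly active Rosa26 locus. All were grown in RPMI with 20% FBS and 10 ng/ml IL-3. The groups were cells without 4-hydroxytamoxifen (0 h, 4 arrays) and cells kept in 500 nM 4-hydroxytamoxifen for 48 h (4 arrays) or 96 h (3 arrays), each array hybridised with Cy3-labelled RNA of 1 sample. Time in culture, 4-hydroxytamoxifen, Cre activity and loss of the demethylases go together in these groups and cannot be told apart. The labels give each array a replicate number but not the line it came from, so the spread between arrays may be partly technical.

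Chil1 encodes a secreted chitinase-like protein that binds chitin without cleaving it and is known from neutrophils and activated macrophages. Ceacam10 belongs to the carcinoembryonic antigen family of immunoglobulin-like glycoproteins, several members of which sit on granulocytes. Ankrd22 encodes a small protein with ankyrin repeats, a fold that binds other proteins. Syt10 encodes a synaptotagmin, one of the calcium sensors that trigger fusion of vesicles with the cell membrane, and Dnm1 encodes dynamin 1, the neuronal form of the GTPase that pinches clathrin-coated vesicles from it. Syt10 and Dnm1 are thus known for opposite steps of membrane traffic, mainly in neurons.

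Signals of the targeted genes were lower in both treated groups. Relative to 0 h, Kdm4a signal was 33.1% at 48 h and 43.6% at 96 h, Kdm4b 10.2% and 10.5%, and Kdm4c 3.24% and 4.13%; every treated array lay below every 0 h array, and the largest of the 6 adjusted p-values by limma was 0.00378. Kdm4c was well above background on only 2 of the 4 arrays at 48 h. All 15 markers of granulocyte-macrophage progenitors were well above background on all 11 arrays. Between 50.2% and 75.8% of non-control spots were well above background, the highest share being that of 96 h replicate 1. The 0 h and 48 h arrays shared a slide and the 96 h arrays lay on another, so slide and time cannot be told apart in any comparison with 96 h.

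Levels below are scaled log2 signals: the log2 of the scanner's background-corrected signal minus that array's 75th percentile, so that 0 marks the brightness of that percentile and each unit is a doubling. They are relative within a probe and do not rank genes against each other. Differences come from 1 limma fit to all 11 arrays and are given with standard errors. The median log2 difference over all genes was 0.12 at 48 h and 0.11 at 96 h against 0 h, small beside the members' differences at 96 h. Scaling each array to its median instead would shift every difference by -0.22 at 48 h against 0 h and by -0.38 at 96 h against 0 h, which turns no member's sign. RNA was taken from whole cultures, so fewer cells of a type and less RNA per cell cannot be told apart.

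Chil1 rose from a level at the limit of detection. At 0 h its probe (A_51_P362066) read -5.11, -4.38, -5.19 and -4.14 on replicates 1 to 4, with scanner signals of 4.08 to 10.6 that were well above background on 2 of 4 arrays. At 48 h it read -3.90, -2.86, -3.26 and -4.21, well above background on 3 of 4 arrays. At 96 h it read -0.39, -1.18 and 0.31, with scanner signals of 101 to 334 that were well above background on all 3 arrays. The 96 h arrays thus stood clear of both other groups, while 48 h replicate 4 lay among the 0 h arrays. Before background correction, the spot was 0.968 to 1.1 times its local background at 0 h and 4.81 to 16.3 times at 96 h. The 0 h level is therefore close to a floor, and the fold change that follows depends on how that floor was treated. The mean was -4.70 ± 0.53 at 0 h (SD, n = 4), -3.56 ± 0.61 at 48 h (SD, n = 4) and -0.42 ± 0.75 at 96 h (SD, n = 3). The difference of 96 h minus 0 h was 4.28 ± 0.43 (SE), or 19.5-fold, and that of 96 h minus 48 h was 3.13 ± 0.43, or 8.77-fold. With another background correction (normexp) the 96 h minus 0 h difference was 1.55, and in the authors' deposited table it was 1.58.

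Ankrd22 was also near background before its rise. At 0 h its probe (A_52_P520607) read -4.23, -5.78, -4.91 and -2.82, and only replicates 1 and 4 were well above background. At 48 h it read -2.30, -4.32, -4.66 and -4.35, and only replicate 1 was well above background. At 96 h it read 0.09, -1.43 and 0.05, well above background on all 3 arrays. Scanner signals ran from 3.72 to 26.3 at 0 h, from 5.0 to 28.0 at 48 h and from 85.1 to 312 at 96 h, so the lowest 96 h array was brighter than any earlier one. The mean moved from -4.44 ± 1.25 at 0 h (SD, n = 4) through -3.91 ± 1.09 at 48 h (SD, n = 4) to -0.43 ± 0.86 at 96 h (SD, n = 3). The difference of 96 h minus 0 h was 4.01 ± 0.75 (SE), 16.1-fold, and that of 96 h minus 48 h was 3.48 ± 0.75, 11.1-fold.

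Ceacam10 was measurable throughout. Its probe (A_52_P134195) was well above background on all 11 arrays and read -1.68, -2.57, -3.87 and -3.69 at 0 h, -1.77, -1.78, -2.80 and -2.71 at 48 h and 1.0, -0.75 and 0.73 at 96 h. Replicates 1 and 2 were the higher ones both at 0 h and at 48 h, and the 96 h arrays lay above all of them. Its scanner signal was 10.2 to 52.4 at 0 h and 136 to 590 at 96 h. The means were -2.95 ± 1.02 at 0 h (SD, n = 4), -2.26 ± 0.57 at 48 h (SD, n = 4) and 0.33 ± 0.94 at 96 h (SD, n = 3). The rise from 0 h to 96 h was 3.28 ± 0.59 (SE), 9.72-fold, of which 2.59 ± 0.59, or 6.03-fold, fell between 48 h and 96 h.

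**Figure D1:**
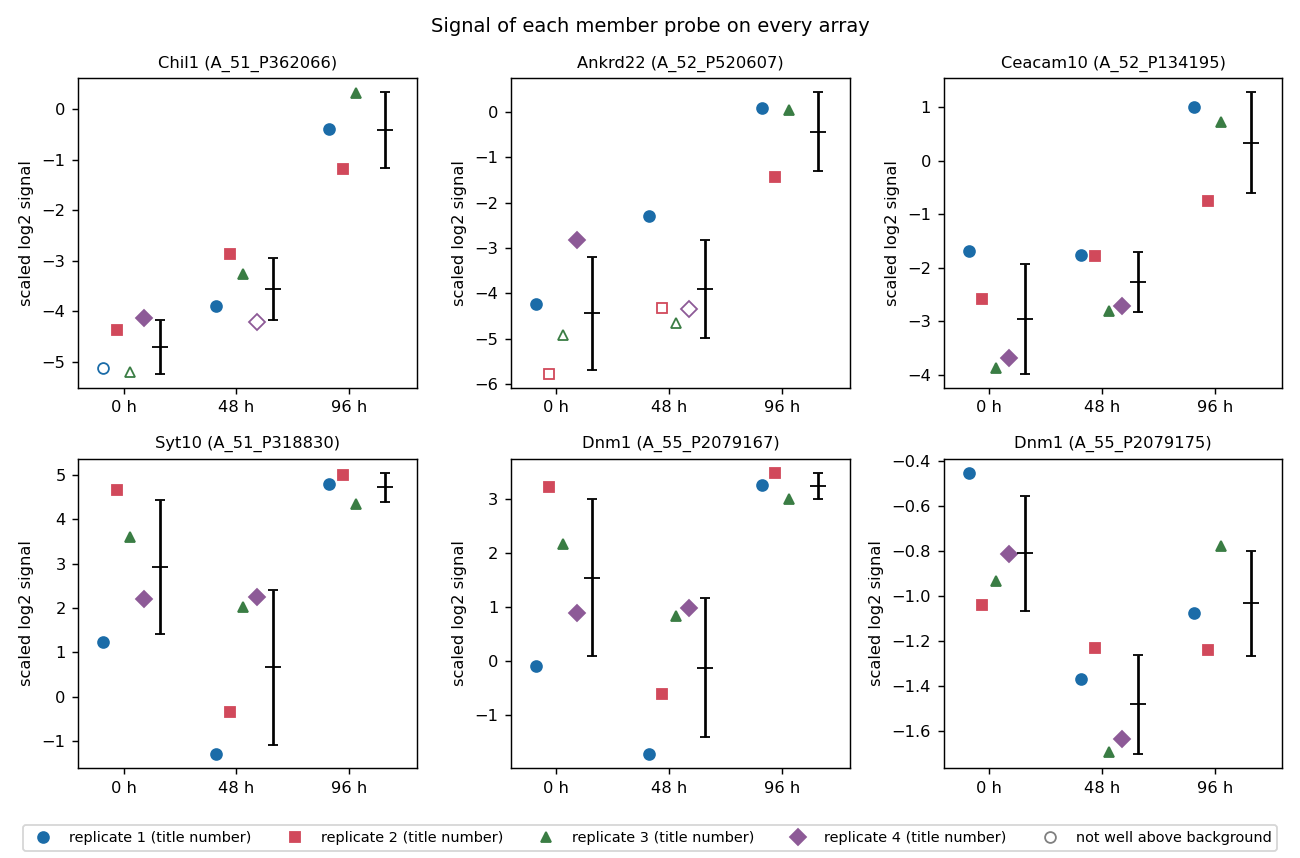
Scaled log2 signal of each member probe on every array (y axis) at 0 h, 48 h and 96 h (x axis), 1 panel per probe with its own y range; markers and colours give the replicate number in the titles, open markers are arrays where the probe was not well above background, and black bars are the group mean ± SD. Chil1, Ankrd22 and Ceacam10 stand above all earlier arrays at 96 h, whereas Syt10 and the first Dnm1 probe spread widely at 0 h and 48 h and close up at 96 h, and the second Dnm1 probe stays within -1.70 to -0.45.

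Syt10 differed in kind: its signal was bright but unsteady before 96 h. Its probe (A_51_P318830) read 1.22, 4.66, 3.59 and 2.20 at 0 h, -1.29, -0.35, 2.03 and 2.25 at 48 h, and 4.80, 5.0 and 4.35 at 96 h. Scanner signals of 393 to 5150 at 0 h and 56.2 to 518 at 48 h were well above background on every array, as were those of 5485 to 8190 at 96 h. The highest 0 h array, replicate 2, exceeded 96 h replicate 3, and 48 h replicates 3 and 4 lay among the 0 h arrays. The highest signal was 13.1 times the lowest among the untreated cultures, against 1.49 times at 96 h. The means were 2.92 ± 1.51 at 0 h (SD, n = 4), 0.66 ± 1.75 at 48 h (SD, n = 4) and 4.72 ± 0.33 at 96 h (SD, n = 3). Against 0 h the 96 h level was higher by 1.80 ± 0.97 (SE), 3.48-fold, with overlapping arrays. Against 48 h it was higher by 4.06 ± 0.97, 16.6-fold, with no overlap.

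Dnm1 gave different answers from its 2 probes. The brighter one (A_55_P2079167), which stands for the gene in the fit, read -0.08, 3.23, 2.17 and 0.90 at 0 h, -1.71, -0.60, 0.85 and 0.99 at 48 h and 3.27, 3.48 and 3.01 at 96 h. Array for array this is the order of Syt10 within each group. Its means were 1.55 ± 1.45 at 0 h (SD, n = 4), -0.12 ± 1.28 at 48 h (SD, n = 4) and 3.26 ± 0.24 at 96 h (SD, n = 3), and 96 h exceeded 0 h by 1.70 ± 0.81 (SE), 3.25-fold, with overlapping arrays, and 48 h by 3.37 ± 0.81, 10.4-fold, without overlap. The second probe (A_55_P2079175) read -0.45, -1.04, -0.93 and -0.81 at 0 h, -1.37, -1.23, -1.70 and -1.64 at 48 h and -1.08, -1.24 and -0.78 at 96 h. It was well above background on all 11 arrays, yet 96 h differed from 0 h by -0.22 ± 0.18 and from 48 h by 0.45 ± 0.18, with overlapping arrays both times. The rise of Dnm1 therefore rests on 1 of 2 probes, which correlated at r = 0.16 over the 11 arrays.

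Syt10 and the brighter Dnm1 probe moved almost as 1 signal. Their Pearson correlation over the 11 arrays was 0.993, and their log2 difference had an SD of 0.43 and a range of 1.27. Each alone ranged over at least 2.71 within the untreated arrays and within the 48 h arrays. The genes lie on different chromosomes, Syt10 on chromosome 15 and Dnm1 on chromosome 2. Chil1, Ankrd22 and Ceacam10 formed the other set, with correlations of 0.851 between Chil1 and Ankrd22, 0.873 between Chil1 and Ceacam10 and 0.820 between Ankrd22 and Ceacam10. Across the 2 sets, leaving aside the second Dnm1 probe, r lay between 0.29 and 0.50. All these points share 3 times, 2 slides and 1 scaling, so the correlations describe these arrays and were not tested. Among the 96 h arrays, replicate 2 was the lowest for Chil1, Ankrd22 and Ceacam10 and the highest for Syt10 and the brighter Dnm1 probe.

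**Figure D2:**
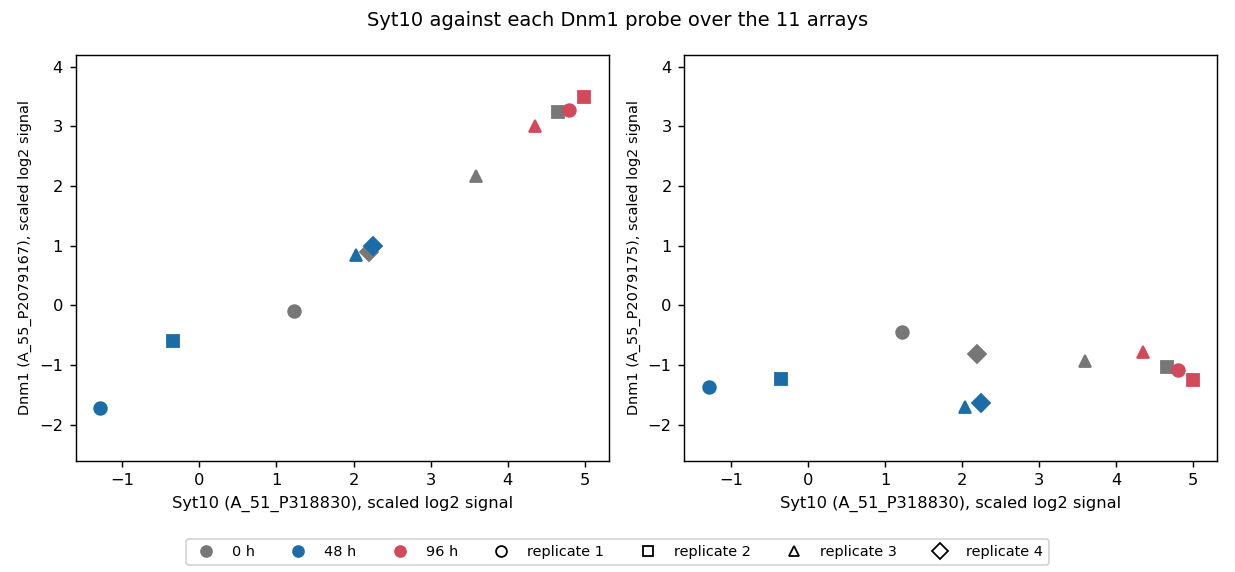
Scaled log2 signal of Syt10 (x axis) against the brighter Dnm1 probe (left, y axis) and the second Dnm1 probe (right, y axis), 1 point per array, coloured by time and shaped by replicate number. The left panel runs close to a line (r = 0.993), with 48 h replicate 1 lowest and the 96 h arrays and 0 h replicate 2 highest; in the right panel the second probe changes little along the same axis (r = 0.19).

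The DNA just before the start sites is shown for Syt10 and Dnm1, whose signals moved together, as the 250 bases upstream of the RefSeq start in build GRCm38.p6, read 5′ to 3′ on the gene's strand. The Syt10 stretch is chr15:89841861-89842110, minus strand, and the Dnm1 stretch is chr2:32353330-32353579, minus strand.
Syt10: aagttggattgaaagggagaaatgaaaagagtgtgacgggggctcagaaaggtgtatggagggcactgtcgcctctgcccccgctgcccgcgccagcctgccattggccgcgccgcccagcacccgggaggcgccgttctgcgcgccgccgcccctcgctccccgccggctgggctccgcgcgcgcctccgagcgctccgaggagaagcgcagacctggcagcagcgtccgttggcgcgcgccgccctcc
Dnm1: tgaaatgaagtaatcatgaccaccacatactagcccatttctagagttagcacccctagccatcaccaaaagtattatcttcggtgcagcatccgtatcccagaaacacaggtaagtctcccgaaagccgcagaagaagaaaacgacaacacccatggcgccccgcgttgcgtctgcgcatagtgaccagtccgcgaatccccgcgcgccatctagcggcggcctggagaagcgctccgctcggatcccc
Syt10 is GC-rich, with 72% G or C and 32 CG dinucleotides; Dnm1 has 55.6% and 20, and the median over 32851 RefSeq promoters is 52.4%. Counting runs in either orientation, the longest shared between any 2 of the 5 members was 7 to 11 bases. For Syt10 and Dnm1 it was 10, on the same strand. Neither holds any of 5 motifs searched on both strands: TTGCNNAA (C/EBP-like), GAGGAAGT (PU.1-like), TGACTCA (AP-1), TTCNNNGAA (STAT-like) and AACCACA (RUNX-like).

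Among the other members only Ankrd22 held a match, so its upstream 250 bases are printed too (chr19:34166042-34166291, minus strand), with matches in capitals.
Ankrd22: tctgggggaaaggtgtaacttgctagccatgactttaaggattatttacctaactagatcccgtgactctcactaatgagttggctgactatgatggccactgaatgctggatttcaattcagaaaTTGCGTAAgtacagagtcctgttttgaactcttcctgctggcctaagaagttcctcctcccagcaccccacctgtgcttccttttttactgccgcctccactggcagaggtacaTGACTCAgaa
The first match is the C/EBP-like motif, 124 to 117 bases before the start, and the second is the AP-1 motif, 10 to 4 bases before it. Of all 32851 promoters, 9.56% hold the C/EBP-like motif and 4.46% the AP-1 motif within the same length (2.44% hold the PU.1-like, 7.02% the STAT-like and 4.4% the RUNX-like motif). Chil1 and Ceacam10 held none of the 5. A match is a run of letters and not a measured binding site.

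At 48 h no member gene passed the test, which was Benjamini-Hochberg adjusted p under 0.05 over all genes in limma's fit. Over all genes 18.5% passed, 10.5% higher and 8% lower, and 14% had all 48 h arrays above and 9.81% all below the 0 h arrays; with arrays scaled to their medians 424 were higher and 1930 lower, and with quantile normalization 1847 and 2201, in place of 2640 and 2009. Chil1 came nearest: it was higher by 1.15 ± 0.40 (SE; 95% interval 0.27 to 2.03) with an adjusted p of 0.0678. Its 0 h level was close to a floor, and the size of this difference depended on the processing. Over the alternative settings the Chil1 difference ran from 0.12 to 1.21, with adjusted p by limma from 0.0526 to 0.704. The interval therefore holds for the main setting only. Ankrd22 differed by 0.53 ± 0.69 (interval -1.02 to 2.07, adjusted p = 0.616) and Ceacam10 by 0.69 ± 0.54 (interval -0.52 to 1.89, adjusted p = 0.390). Syt10 differed by -2.26 ± 0.90 (interval -4.26 to -0.26, adjusted p = 0.106) and the brighter Dnm1 probe by -1.67 ± 0.75 (adjusted p = 0.144). The groups overlapped for all 5 genes, and the wide intervals do not show that their levels were alike. This comparison shares its 0 h arrays with the one that chose the members and is not independent of the choice.

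The second Dnm1 probe did pass at 48 h in limma's fit of single probes: it fell by 0.67 on the log2 scale (SE 0.17, adjusted p = 0.0237 over 34302 probes), with every 48 h array below every 0 h array. In that fit 16.4% of all probes passed, and 7.05% of all probes were called lower. Leaving out 0 h replicate 1 ended the call (adjusted p = 0.0559), as did leaving out 0 h replicate 4 (0.0555), 48 h replicate 3 (0.0538) or 48 h replicate 4 (0.0679).

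At 96 h against 0 h, 9.55% of all genes passed, 1550 higher and 848 lower, a split that turned to 232 and 2327 when arrays were scaled to their medians and to 979 and 1164 with quantile normalization. Of all genes, 16.4% had all 96 h arrays above and 8.68% all below the 0 h arrays. Chil1, Ankrd22 and Ceacam10 were among the 16.4%, which is no finding, since this comparison chose them. Against 48 h, all 5 members, Dnm1 by its brighter probe only, had their 96 h arrays on top. That held for 14.2% of all genes, while 13.6% had theirs lowest. It is no finding either, since the 96 h arrays chose the members. Between those times 11.1% of genes passed the test, 5.15% higher and 5.93% lower; with arrays scaled to their medians it was 158 and 762 in place of 1292 and 1490. These comparisons share arrays with each other.

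The numbers in the deposited files' names were taken to pair arrays across times, and the changes below are given pair by pair. On every array that number is also the column on the slide. A shared culture and a shared slide column therefore cannot be told apart. The pairing was also chosen from these same data, so it is not established. From 0 h to 48 h Chil1 changed by 1.21, 1.52, 1.94 and -0.07 in the pairs numbered 1 to 4, and Ankrd22 by 1.94, 1.46, 0.25 and -1.53. Syt10 changed by -2.51, -5.01, -1.56 and 0.05 and the brighter Dnm1 probe by -1.63, -3.84, -1.32 and 0.10. In pair 4 Chil1, Syt10 and the brighter Dnm1 probe shifted by no more than 0.10 in either direction, unlike in pairs 1 to 3. The second Dnm1 probe changed by -0.92, -0.19, -0.76 and -0.82, with pair 2 the smallest, and Ceacam10 moved by -0.08, 0.79, 1.06 and 0.98. From 0 h to 96 h all 5 genes, Dnm1 by its brighter probe, were higher in each of the pairs numbered 1, 3 and 4. The second Dnm1 probe changed by -0.63, -0.31 and 0.04 in them. Chil1 rose by 4.72, 4.01 and 4.45 there, Syt10 by 3.58, 1.41 and 2.15. No 96 h array is numbered 2, the number of the 0 h array with the highest level of Syt10 and of the brighter Dnm1 probe.

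With each array left out in turn, the 96 h rise over 0 h ran from 3.92 to 4.66 for Chil1, from 3.56 to 4.54 for Ankrd22 and from 2.94 to 3.82 for Ceacam10. It ran from 1.23 to 2.38 for Syt10 and from 1.15 to 2.26 for Dnm1. On the fold scale those are 15.1 to 25.3 for Chil1, 11.8 to 23.3 for Ankrd22, 7.69 to 14.1 for Ceacam10, 2.35 to 5.20 for Syt10 and 2.23 to 4.79 for Dnm1. At 48 h, the Ankrd22 difference went from 0.53 to -0.01 without 48 h replicate 1, the array on which it was brightest.

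The treatment of background mattered more for the dim genes than any array. With the normexp background model and an offset of 50, the rise from 0 h to 96 h was 1.55 for Chil1, 1.46 for Ankrd22 and 1.73 for Ceacam10, and in the authors' deposited values it was 1.58, 1.47 and 1.68. The signal used as input, the background model and the offset changed together there, and which of them moved the values was not tested. Every direction was kept. Syt10 and Dnm1, which start brighter, were hardly touched, with 1.90 and 1.64 under normexp. Averaging both Dnm1 probes gave 0.74 for that gene. The 19.5-fold and 16.1-fold differences of Chil1 and Ankrd22 are those of the processed signals as scaled here.

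**Figure D3:**
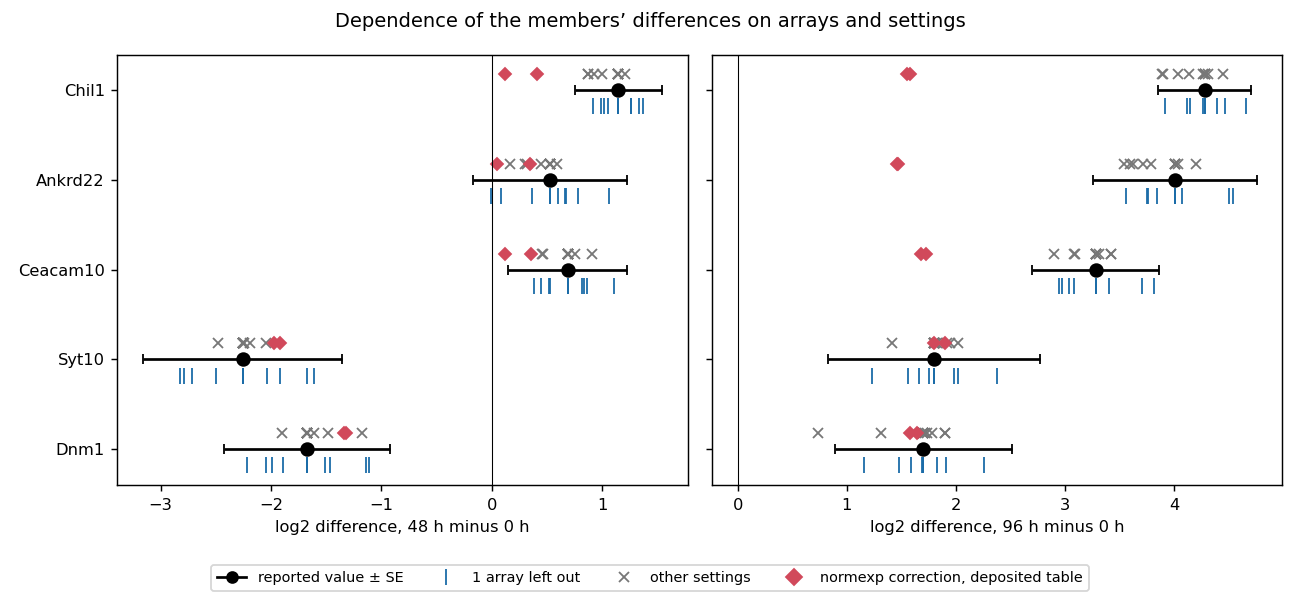
Log2 difference of 48 h minus 0 h (left) and 96 h minus 0 h (right) on the x axis for the 5 member genes on the y axis: black points are the reported values ± SE, blue ticks the values with 1 array left out, grey crosses other settings, and red diamonds the normexp correction and the deposited table. The red diamonds pull Chil1, Ankrd22 and Ceacam10 down to between 1.46 and 1.73 at 96 h but leave Syt10 in place, and the lowest cross for Dnm1 (0.74) is the mean of its 2 probes.

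Genes with the most similar course were ranked by Pearson's r over the 11 arrays among 3231 genes that varied at least as much as an SD of 0.5. The values describe likeness only. For Chil1 they were Ltf, which encodes the granule protein lactoferrin (r = 0.947), C3, the third complement component (0.942), and Proca1 (0.940), and 9 genes reached 0.9. For Ceacam10 they were Itgb2l, an integrin beta chain of neutrophils (0.972), Cd177, a neutrophil surface glycoprotein (0.956), and S100a8, a subunit of calprotectin (0.955), and 23 genes reached 0.9. Ankrd22 had looser company: Ndnf (0.901), Slc12a3, a sodium-chloride cotransporter (0.894), and Mapk13, the delta form of p38 kinase (0.894), with 1 gene at 0.9. No untreated array had Ndnf or Slc12a3 well above background. At 48 h Ndnf was so on 1 of 4 arrays and Slc12a3 on none, so Slc12a3 passed the filter only through the 96 h arrays. Ankrd22 was itself near background before 96 h, so its r with these genes includes many dim signals.

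Syt10 and Dnm1 shared their nearest genes. Prm1, which encodes the sperm protamine 1, stood first for both (r = 0.989 with Syt10 and 0.981 with Dnm1), followed by 1700061I17Rik (0.974 and 0.975) and Slc12a5, the neuronal potassium-chloride cotransporter (0.962 and 0.964), and 4 genes reached 0.9 for each. Prm1 read -1.97, -0.53, -1.04 and -1.77 at 0 h, -3.30, -2.98, -1.68 and -1.42 at 48 h, and 0.07, 0.06 and -0.39 at 96 h. Among the 0 h arrays it was highest in replicate 2, and over all 11 arrays it was lowest in 48 h replicate 1, as Syt10 was. In limma's fit Prm1 was not called at 48 h against 0 h (-1.02 ± 0.45, adjusted p = 0.142) or at 96 h against 0 h (1.24 ± 0.49, adjusted p = 0.130), and was higher at 96 h than at 48 h (2.26 ± 0.49, adjusted p = 0.0193). That last call ended when 96 h replicate 1 (adjusted p = 0.0698) or 96 h replicate 2 (0.0552) was left out.

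Marker lists of other cell types were summed on the linear scale and set beside the members. Of 13 neuronal markers, 4 (Stmn2, Gap43, Nefl and Slc17a7) were well above background on no array and 4 on all arrays. Their summed level was 15.3 to 18.1 at 0 h, 25.8 to 29.5 at 48 h and 13.3 to 19.0 at 96 h, highest at the time when Syt10 and Dnm1 were lowest. A linear sum follows its brightest genes, and Snap25 is in the list. Its mean scaled log2 signal was 3.46 at 0 h, 4.44 at 48 h and 3.43 at 96 h, so the sum is not a course common to these markers. Of the 6 tested, none was called at 96 h against 0 h by limma, whereas 2 were higher at 48 h against 0 h, where 10.5% of all genes were, and 3 lower at 96 h against 48 h, where 5.93% were. Their part in the course of Syt10 and Dnm1 was not tested. Mature neutrophil markers, of which 10 of 11 with a probe were well above background on all arrays, summed to 142 to 630 at 0 h, 288 to 704 at 48 h and 898 to 1551 at 96 h; 4 of the 11 rose at 96 h against 0 h, beside 6.17% of all genes. Macrophage markers summed to 17.4 to 37.0 at 0 h, 25.6 to 29.9 at 48 h and 18.7 to 24.4 at 96 h, with Mrc1 and Vsig4 above background on no array. Of the 6 macrophage markers tested none was called, and their median log2 difference from 0 h was 0.61 at 48 h and 0.70 at 96 h, beside 0.12 and 0.11 over all genes. The part of mature neutrophil cells in the rise of Chil1, Ankrd22 and Ceacam10 was not tested.

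Granule genes give the scale for that rise. Of 23 secondary and tertiary granule genes tested, 5 were called higher and none lower at 96 h against 0 h by limma, with a median log2 difference of 1.39, beside 6.17% higher and 3.38% lower and a median of 0.11 over all genes. Ltf rose by 6.82 (113-fold, adjusted p = 9.99e-04) and Camp, the cathelicidin precursor, by 5.70 (52.1-fold, adjusted p = 0.00240), both more than any member. Itgb2l rose by 3.32 (adjusted p = 0.0353) and Cybb, the catalytic subunit of the phagocyte oxidase, by 2.66 (adjusted p = 0.0451). Cybb was dim, well above background on 2 of 4 arrays at 0 h and 3 of 4 at 48 h. Its rise was 0.89 under normexp (adjusted p = 0.0123 by limma), and quantile normalization ended its call (0.0547). Ngp, neutrophilic granule protein, differed by 3.60 without passing (adjusted p = 0.0512) and Lcn2, lipocalin 2, by 0.16 (adjusted p = 0.905). At 48 h Camp was already higher by 2.5 (adjusted p = 0.0160), while Ltf, like Chil1, Ankrd22 and Ceacam10, was not called. The call of Itgb2l ended without 0 h replicate 3 or 4 or any 96 h array (adjusted p 0.0536 to 0.111), and that of Cybb without any array but 0 h replicate 2 and 48 h replicates 2 and 4 (0.0563 to 0.131).

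96 h replicate 2 was the lowest of its group not only for Chil1, Ankrd22 and Ceacam10 but also for Ltf, Camp, Ngp, Lcn2, Itgb2l and Cd177. Ltf, for example, read 5.11, 3.39 and 5.23 at 96 h and Camp 7.79, 6.52 and 8.26. Of 14 primary granule genes, 4 were higher and none lower at 96 h, beside 6.17% and 3.38% of all genes, including Mpo, myeloperoxidase, by 5.18 (adjusted p = 0.00264). Median scaling ended the calls of the others, Epx (adjusted p = 0.0622), Prss57 (0.0955) and Gusb (0.692). Epx was well above background on no 0 h array and turned to -0.13 under normexp. Mpo had already risen by 4.33 at 48 h. Of 18 factors of granulocyte fate, 2 were lower at 96 h and none higher, beside the same shares: Il3ra, a chain of the IL-3 receptor, which fell by 1.89, and Cebpb, a C/EBP transcription factor, which fell by 0.48 (adjusted p = 0.0284; 0.0537 to 0.0826 without 0 h replicate 1, 3 or 4 or any 96 h array).

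**Figure D4:**
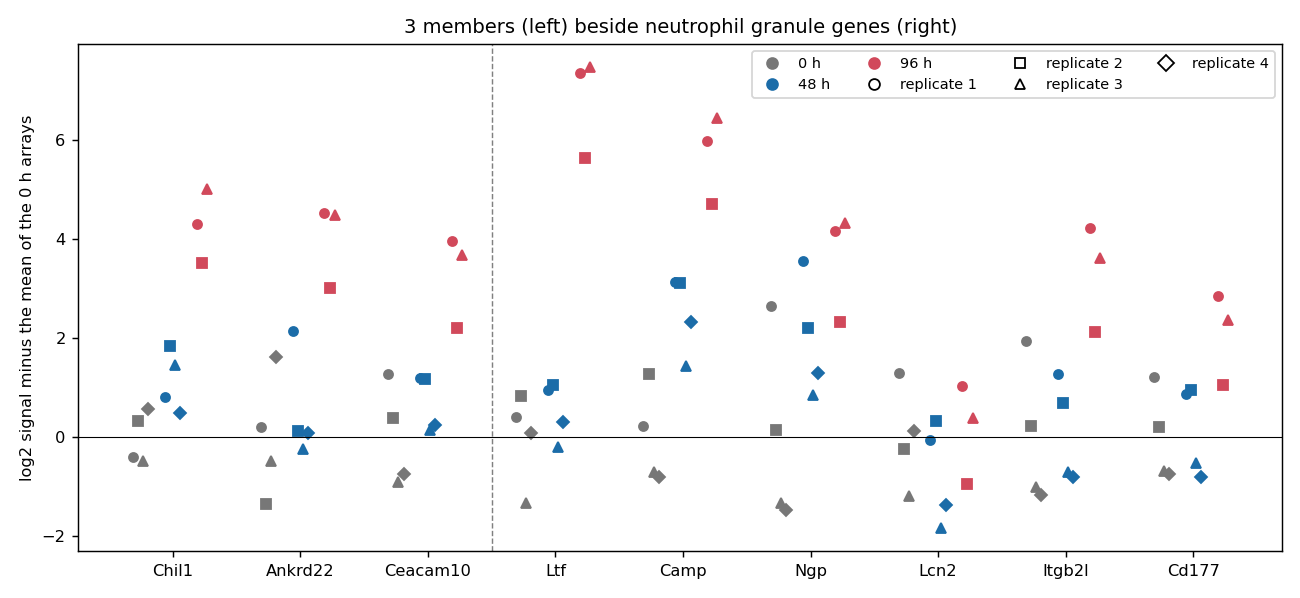
Log2 signal on every array minus the mean of the 0 h arrays (y axis) for Chil1, Ankrd22 and Ceacam10 (left of the dashed line) and for granule and neutrophil surface genes (right), coloured by time and shaped by replicate number. At 96 h the square of replicate 2 is the lowest point of its group for all 9 genes, Camp has left the 0 h range by 48 h, and Lcn2 shows no separation.

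Over 6 lists of paralogues and partners, 124 of 170 genes were tested, and 15 were called at 96 h against 0 h, 10 higher and 5 lower, which is 12.1% beside 9.55% of all genes (6.17% higher and 3.38% lower). At 48 h against 0 h, 10.5% of all genes were higher and 8% lower, and the counts of each list are given beside these shares and the median of 0.11 over all genes at 96 h. With arrays paired by the numbers in the files' names as a block, 16 were higher. With arrays scaled to their medians 1 was higher and 16 lower. The count higher was 18 without 0 h replicate 2 and 5, 3 and 4 without 96 h replicates 1, 2 and 3. The count lower was 3, 2 and 1 without 0 h replicates 1, 3 and 4 and 3, 1 and 2 without 96 h replicates 1, 2 and 3. Median scaling ended the 96 h calls of Chid1 (0.03, adjusted p = 0.936), Ceacam2 (0.39, 0.198), Ankrd11 (0.55, 0.177), Ankrd34a (0.34, 0.245), Syt3 (0.58, 0.147) and Stx2 (0.19, 0.501).

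Of 5 tested chitinase relatives of Chil1, 1 rose at 96 h (Chid1, by 0.41, adjusted p = 0.0460), with a median of 0.41 over the list; at 48 h, 2 fell, Ovgp1 by 0.85 (adjusted p = 0.0275) and Ctbs, which trims chitobiose from glycans, by 0.71 (adjusted p = 0.0167). Under normexp those 48 h differences were -0.06 (adjusted p = 0.677) for Ovgp1 and -0.19 (0.114) for Ctbs, which ended both calls. Of 11 tested carcinoembryonic antigen and pregnancy-specific glycoprotein genes, 1 rose (Ceacam2, by 0.77, adjusted p = 0.0354), with a median of 0.08. The call of Chid1 ended with arrays paired by the numbers in the files' names (adjusted p = 0.0527 by limma). It also ended without any array but 0 h replicate 2 and 48 h replicate 1 (adjusted p 0.0561 to 0.127). That of Ceacam2 ended without 0 h replicate 2, 3 or 4, 48 h replicate 1 or any 96 h array (0.0506 to 0.112). That of Ovgp1 ended without 0 h replicate 3 or 4 or 48 h replicate 3 or 4 (0.0578 to 0.0759).

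Of 34 tested genes named Ankrd, the relatives of Ankrd22, 4 were higher and 1 lower at 96 h, with a median of 0.15. Ankrd11, a chromatin cofactor, rose by 0.93 (adjusted p = 0.0164, 0.0559 without 96 h replicate 2) and Ankrd10 fell by 0.87 (adjusted p = 0.0159, 0.0526 without 96 h replicate 1). Ankrd35 was well above background on none of the 0 h and 48 h arrays and on all 3 at 96 h, so it passed the filter only through the 96 h arrays. Its measured means were -6.06 at 0 h and -4.02 at 96 h (adjusted p = 0.0104 by limma). With dimmer signals raised to the dimmest one called above background on each array, the difference was 0.52, or 1.44-fold, and the call ended (adjusted p = 0.257). In the deposited values it was 0.09 (adjusted p = 0.401). Ankrd34a, also dim, rose by 0.72 (adjusted p = 0.0318; 0.0657 to 0.103 without 0 h replicate 3 or 4 or any 96 h array). Both turned negative under normexp. At 48 h Ankrd37, a target of hypoxia signalling, stood out with a rise of 2.09 (adjusted p = 0.00146) and was back at -0.14 at 96 h.

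Of 12 tested synaptotagmins and relatives of Syt10, 1 rose at 96 h (Syt3, by 0.97, adjusted p = 0.0301, 0.0641 to 0.0889 without 0 h replicate 4 or any 96 h array; 0.26 under normexp) and none fell, with a median of 0.27. At 48 h 2 fell, the membrane-tethering extended synaptotagmins Esyt2 by 0.52 (adjusted p = 0.0384, 0.0516 to 0.103 without any array but 96 h replicates 1 and 2 and 0 h replicate 2) and Esyt1 by 0.48 (adjusted p = 0.0266, 0.0586 to 0.0739 without 0 h replicate 1 or 48 h replicate 3 or 4). Of 29 SNARE and exocytosis genes, 2 rose at 96 h, among them Stx2, a syntaxin, by 0.57 (adjusted p = 0.0126). At 48 h 5 rose and 3 fell, beside 10.5% and 8% of all genes. The largest rises were those of Snap25 by 0.98 (adjusted p = 0.00409) and Snap23 by 0.95 (adjusted p = 0.0050), membrane-fusion partners of synaptotagmins, calls that median scaling ended (0.0727 and 0.0836), and both were back near the 0 h level at 96 h (-0.03 and -0.05), the reverse of Syt10's course. Snap25 is also among the neuronal markers summed above, so its signal counts in both places.

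Of 33 dynamin and clathrin endocytosis genes, 3 rose and 10 fell at 48 h, beside 10.5% and 8% of all genes, and 1 rose and 4 fell at 96 h, beside 6.17% and 3.38%, with a median of -0.04. Pacsin3, which binds dynamin, rose by 1.1 at 96 h (adjusted p = 0.0157, 0.0536 without 96 h replicate 3). Its difference was 0.15 under normexp (adjusted p = 0.292), 0.71 on median-scaled arrays (0.116), 0.82 after quantile normalization (0.0745) and 0.27 in the deposited values (0.0549), each of which ended the call. Snx18, a dynamin-binding sorting nexin, fell by 0.72 at 48 h (adjusted p = 0.0102) and by 0.71 at 96 h (adjusted p = 0.0249; 0.0520 to 0.0788 without 0 h replicate 1 or 4 or 96 h replicate 2 or 3). Cttn, cortactin, fell by 0.68 at 96 h (adjusted p = 0.0248; 0.0501 to 0.0789 without 0 h replicate 1, 3 or 4 or 96 h replicate 1 or 2).

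Genes next to the members on the chromosome were taken from RefSeq gene order, the nearest pair on each side with a tested probe, 20 genes in all. At 96 h against 0 h 3 of the 20 were called (Ppfia4, Stambpl1 and Acr), beside 9.55% of all genes. The 48 h calls below stand beside 10.5% of all genes higher and 8% lower at 48 h against 0 h. None of Fmod, Btg2 and Myog near Chil1 was called at 96 h against 0 h, and Ppfia4, a liprin, was higher by 0.90 (adjusted p = 0.0166; 0.0557 and 0.0575 without 96 h replicate 1 or 2; 0.0558 under normexp and 0.0791 with median scaling). Next to Ankrd22, Stambpl1, a deubiquitinase, fell by 1.29 at 48 h (adjusted p = 0.00348) and by 1.11 at 96 h (adjusted p = 0.0157; 0.0560 and 0.0536 without 96 h replicate 2 or 3), against the direction of Ankrd22. Lipn, a lipase on its other side, rose by 1.71 at 48 h (adjusted p = 0.0143; 0.0681 with quantile normalization) and differed by -0.22 at 96 h. Ceacam10 has Cd177 as its nearest tested neighbour on one side; Cd177 differed by 2.09 at 96 h without passing (adjusted p = 0.0620) and was among the genes most like it over the arrays. Tex101, Rps19 and Cd79a around it were not called.

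Near Syt10, Acr rose by 0.75 at 96 h (adjusted p = 0.0398; 0.0532 to 0.127 without any array but 0 h replicate 1 and 48 h replicates 2 and 3; 0.209 with median scaling, 0.0580 after quantile normalization, 0.0512 under normexp), and Rabl2, Alg10b and Cpne8 were not called at that time. On both sides of Dnm1 a gene was lower at 48 h, as were 8% of all genes. Dnm1 itself was not called then by its brighter probe (adjusted p = 0.144 by limma). Golga2, a Golgi matrix protein, fell by 0.40 at 48 h (adjusted p = 0.0352) and was higher by 0.50 at 96 h than at 48 h (adjusted p = 0.0295). Ciz1, a replication-associated nuclear protein, fell by 0.62 (adjusted p = 0.0119) and was then higher by 0.66 (adjusted p = 0.0170). The Golga2 calls ended without 0 h replicate 1, 3 or 4, 48 h replicate 1 or 4 or any 96 h array (adjusted p 0.0663 to 0.0958), and the later Ciz1 call without 96 h replicate 1 or 2 (0.0585 and 0.0541). Median scaling ended both Golga2 calls (0.0663 and 0.400) and the later Ciz1 call (0.227). Neither differed between 96 h and 0 h beyond the test (adjusted p = 0.624 and 0.878). Swi5 and 1110008P14Rik were called at neither time against 0 h nor between times.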

How the data were processed

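RNA of 11 cultures was hybridised to 1-colour Agilent arrays (62976 spots each, 59305 non-control). Per the file headers, signals were extracted with Feature Extraction 11.0.1.1; the intensity used here is the deposited processed signal, already background-corrected, with its flags. The deposited log2 table was made by the authors with limma, per the submitters' processing notes (its version is not given in these sources); its columns match the scanner values after normexp and quantile normalization (correlation 1, column medians 6.22 to 6.23), without centring of genes. The flags that mark a spot as above background or as an outlier are deposited per the file headers and are neither intensity nor log value.

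From the processed signals, log2 values minus each array's 75th percentile were computed, outlier spots left out, and probes kept that were well above background on at least 3 arrays (34302 of 55681). A gene is its brightest probe; a probe without a gene symbol is a feature of its own. limma 3.58.1 in R 4.3.3 fitted the 3 times together (8 residual degrees of freedom), with Benjamini-Hochberg adjustment over 25109 genes. The script was tested on simulated data. Alternatives were background correction, scaling, filter, array weights, blocks and leaving out arrays; normexp was run on median signals in place of the planned mean signals. Array number limits precision. No 2 arrays correlated above 0.990. The members and lists were chosen with earlier results of these data known. Named were all member probes, up to 4 genes a list called at 96 h and up to 2 at 48 h by size, neighbours, the 3 genes most like each member, Camp, Ltf, Ngp and Lcn2, and the demethylases. Promoter sequences are from RefSeq (GRCm38.p6), matched for all 5 genes; the array was designed on another build, so no probe positions are given.

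Replicate numbers in the titles and in the files' names differ at 96 h: 96 h replicates 2 and 3 are numbered 3 and 4 in the names. Deviations from group means correlated by name number in every pair, at 0.14 to 0.28 between 0 h and 48 h, 0.12 to 0.36 between 0 h and 96 h and 0.23 to 0.30 between 48 h and 96 h, but not by title number (-0.04 to 0.00 for 96 h replicates 2 and 3). Some unmatched pairs also exceeded 0.1: 0 h replicate 4 with 48 h replicate 3 (0.17, above its own pair at 0.14) and 0 h replicate 2 with 96 h replicate 3 (0.11). The name numbers were taken as pairing by the rule that every such pair exceeds 0.1. That rule was applied to these same data and unmatched pairs also met it, so it does not establish the pairing. Each name number is also the slide column of its array. A shared culture and a shared slide column cannot be told apart in these correlations.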

Additional observations from a re-analysis of the deposited data

Results flagged for a closer look

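Ankrd22 on 48 h replicate 1 read -2.30, above the other 48 h arrays, whose highest was -4.32; the gap took up 0.853 of the group's range, beyond Dixon's critical value for 4 samples. Of 12 groups of 4 arrays examined this way, this was the only one, and chance flags about 1 in 20. It was also the only 48 h array on which Ankrd22 was well above background.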

How the results depend on the processing

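Every member kept its direction at 96 h against both other times under every alternative run and with each array left out, except that the second Dnm1 probe was lower at 96 h than at 0 h throughout. The rise from 0 h moved with the background: under normexp it was 1.55 for Chil1, 1.46 for Ankrd22 and 1.73 for Ceacam10, and in the deposited values it was 1.58, 1.47 and 1.68; the cause was not tested. At 48 h against 0 h, Syt10 passed limma's test under normexp (-1.97, adjusted p = 0.0245), as did Dnm1 (-1.34, adjusted p = 0.0463). Many genes passed in that setting, 9086 higher and 3589 lower, in place of 2640 and 2009 in the main fit. Dnm1 also passed in limma with its probes averaged (-1.17, adjusted p = 0.0345), where 2486 genes were higher and 1864 lower. The cause was not tested. Over all alternatives the adjusted p of Syt10 ran to 0.172 and that of Dnm1 to 0.225. The Ankrd22 difference at 48 h ran from -0.0084 to 1.07 with arrays left out. Chil1 and Ankrd22 have no value where probes had to be above background on all arrays, and slide position was a term only at 48 h, since the 96 h arrays lie on a slide of their own.

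Of the 10 family and partner genes higher and 5 lower at 96 h, normexp gave 19 and 17, median scaling 1 and 16, quantile normalization 6 higher, the deposited values 9 lower, no filter 1 lower, a fit of the 2 groups compared alone 1 and 0, and array weights 8 lower; with arrays left out the counts ran from 3 to 18 and from 1 to 7. The replicate block by number in the files' names gave 16 higher and that by title number 2 lower, and the pairing changed no member's call at 48 h. Under normexp, dim genes turned sign: Ankrd35 (-0.19), Ankrd34a (-0.17, and -0.43 against 48 h), Epx (-0.13) and Slc12a3 (-0.12, and -0.40 against 48 h).

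Counts over all genes moved more than the members. At 48 h 2640 were higher and 2009 lower, against 9086 and 3589 under normexp, 424 higher under median scaling and 56.6% of the higher count and 1157 lower without a filter. At 96 h 1550 were higher and 848 lower, against 3404 lower under normexp, 232 and 2327 under median scaling, 979 higher under quantile normalization, 1286 lower in the deposited values, 653 and 257 without a filter, 308 and 98 with 2 groups alone, 441 lower with the title block, 1367 lower with the block by files' names and 1284 lower with array weights. Between 48 h and 96 h 1292 were higher and 1490 lower, against 4212 and 10538, 158 and 762, and 602 and 765 under normexp, median scaling and no filter, and 764 and 816 with the title block. With arrays left out the counts higher ran from 1392 to 2968, from 483 to 1962 and from 403 to 1405 in the 3 comparisons, and the counts lower from 1052 to 2460, from 221 to 1335 and from 586 to 1560. Signal near background limits the 0 h levels of Chil1 and Ankrd22.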
